A study of Mus musculus with 6 samples.

Results

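NRF2 target genes and antioxidant enzymes were examined as a set of 35 genes of 19079 genes in the deposited table. The genes were taken from a list of names that was drawn up with earlier results of these data known: the transcription factor NRF2 (*Nfe2l2*) and its inhibitor *Keap1*, the genes of glutathione synthesis and reduction, the thioredoxin system, the peroxiredoxins, the superoxide dismutases and catalase, the glutathione transferases with further detoxification genes, and the genes of heme, iron and NADPH handling. All 35 were found once each, and 34 were tested, those averaging 10 or more normalized counts over the samples. The remaining gene, *Slc7a11*, lay below that level.

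The RNA came from ventricles of C57BL/6 mice at postnatal day (P) 10. The 4 *Runx1* OE samples had the genotype Myh6-CreER; Rosa-Runx1, in which Cre recombinase switches on a *Runx1* transgene at the Rosa locus. The 2 control samples carried Myh6-CreER alone, and all 6 mice received tamoxifen at P0 and P1. CreER is a form of Cre that acts only in the presence of tamoxifen, and the *Myh6* promoter drives it in cardiomyocytes. The transgene is thus switched on in cardiomyocytes, and with this tamoxifen schedule the study found RUNX1 induced in only part of them. The RNA came from whole tissue with its vessels, fibroblasts and blood cells. In such bulk tissue, fewer cells of a type and less RNA per cell cannot be told apart. The labels describe separate samples, and p-values measure only the spread between these 6 samples, of which 2 are controls. The sequencing asked which genes change when *Runx1* is overexpressed in the neonatal heart.

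NRF2 is a transcription factor that KEAP1 holds in the cytoplasm and marks for degradation. When oxidants or electrophiles modify KEAP1, NRF2 escapes, enters the nucleus and binds antioxidant response elements (AREs) together with small MAF proteins. Its targets make glutathione, reduce thioredoxin and peroxiredoxins, detoxify reactive compounds, store iron and supply NADPH, the electron donor of these reactions. Cardiomyocytes are rich in mitochondria, a source of superoxide and hydrogen peroxide, and their antioxidant enzymes are spread over the cytosol, mitochondria and peroxisomes.

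Promoter sequences were taken from RefSeq (build GRCm38.p6, 250 bases before to 50 bases after each start). Of the 35 genes, 28 matched, with 34 promoters. The ARE core, searched as TGACNNNGC on both strands, lay in 8 of these 34 promoters (23.5%), in 8 genes, and in 12.4% of all 32851 promoters. The 8 sites are shown because they are the sequence that NRF2 is known to read. Each is given 5′ to 3′ on the strand that reads the motif, with the core in capitals.
*Nfe2l2*, chr2:75704885-75704913, minus strand: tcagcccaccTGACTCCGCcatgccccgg
*Srxn1*, chr2:152105542-152105570, minus strand: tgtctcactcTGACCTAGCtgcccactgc
*Gstm5*, chr3:107895802-107895830, plus strand: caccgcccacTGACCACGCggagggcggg
*Gclm*, chr3:122245413-122245441, minus strand: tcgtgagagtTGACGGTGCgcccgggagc
*Prdx1*, chr4:116685456-116685484, minus strand: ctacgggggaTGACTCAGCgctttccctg
*Me1*, chr9:86695902-86695930, minus strand: gatgccgccgTGACTCAGCgcttctcgcg
*Txnrd1*, chr10:82859104-82859132, minus strand: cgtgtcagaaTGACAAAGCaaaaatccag
*Sod1*, chr16:90220696-90220724, minus strand: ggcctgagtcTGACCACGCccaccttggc

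The core of *Me1* and that of *Prdx1* had the same 9 letters, TGACTCAGC. The *Me1* core began 6 bases before the transcription start, and that of *Srxn1* lay 28 bases after it. A match to these letters is a description of the sequence and not a measured binding site. The 2 genes that rose in *Runx1* OE hearts, described next, were *Me1* and *Gstm1*. Their promoters are printed from 250 bases before to 10 bases after the start, with the ARE core of *Me1* in capitals. The printed stretch of *Gstm1* holds no ARE core, and each gene has a further RefSeq promoter, without the core, that is not printed.
*Me1*, chr9:86695905-86696164, minus strand: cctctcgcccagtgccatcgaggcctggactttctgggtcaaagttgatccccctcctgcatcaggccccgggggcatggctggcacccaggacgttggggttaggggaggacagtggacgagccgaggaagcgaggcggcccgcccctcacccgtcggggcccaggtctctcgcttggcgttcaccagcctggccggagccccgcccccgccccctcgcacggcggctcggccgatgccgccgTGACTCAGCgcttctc
*Gstm1*, chr3:108017809-108018068, minus strand: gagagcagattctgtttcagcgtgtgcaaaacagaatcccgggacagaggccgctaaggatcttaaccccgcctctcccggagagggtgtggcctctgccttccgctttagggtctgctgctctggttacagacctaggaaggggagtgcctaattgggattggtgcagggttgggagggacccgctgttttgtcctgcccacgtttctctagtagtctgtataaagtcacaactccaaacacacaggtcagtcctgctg

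RUNX1 is known to bind the core TGTGGT. This core, on either strand, lay in 3 of the 34 promoters (8.82%), those of *Gstm1*, *Prdx2* and *Prdx3*, and in 16.8% of all promoters. The *Gstm1* site began 26 bases after the start and is shown on the strand that reads the core, in capitals.
*Gstm1*, chr3:108017774-108017802, plus strand: atggtgctggtgcTGTGGTcttctcaaac

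The table gives the mean of each group in normalized counts, which are estimated read counts per gene divided by a size factor for each library. Its 6 columns of values for single libraries were not used here, because their names match no sample label. From the group means, the maximum and the geometric mean over the 6 libraries, the interval that must hold every library of a group was computed, and groups were said not to overlap where these intervals are separate. The difference between groups, as the log2 of the *Runx1* OE mean divided by the Myh6-CreER mean (log2 ratio), was tested with a spread recovered from the geometric mean and shrunk across genes with limma. A gene was called at a p under 0.05 after Benjamini-Hochberg adjustment over all 15172 genes tested. Where limma is named below with a call or a p, this test is meant, of which limma gave only the shrinkage. Counts of the *Runx1* gene were examined first, and they do not separate RNA of the transgene from that of the endogenous gene. *Runx1* averaged 16622 normalized counts in *Runx1* OE hearts and 40.2 in Myh6-CreER controls (log2 ratio 8.69, SE 0.47, adjusted p = 2.5e-04). Its libraries lay between 5355 and 25321 normalized counts in *Runx1* OE and between 16.9 and 63.4 in controls, so the groups did not overlap.

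Normalized counts summed over all genes were 19199157 for the *Runx1* OE means and 19870568 for the control means. Markers of cardiomyocytes, endothelial cells, fibroblasts, smooth muscle cells and pericytes, macrophages and erythroid cells were all above 0 in both groups, except 1 of 8 erythroid markers that had no row. None of these markers was called by limma, and 2 were higher and 4 lower at an unadjusted p under 0.05. The 10 cardiomyocyte markers summed to 504982 normalized counts in *Runx1* OE and 603317 in controls, with 8 of 10 below 0 on the log2 ratio scale and a median of -0.24. The 7 erythroid markers measured summed to 99058 and 89969, and all 7 lay above 0, from 0.09 to 0.88 with SEs between 0.37 and 0.50. *Xist*, transcribed from the inactive X of females, averaged 4584 normalized counts in *Runx1* OE and 8.92 in controls, with neither control library above 17.8. The *Runx1* OE libraries lay between 1.92 and 7493, an interval that allows a library near the control level. The labels do not state sex, and its part in the differences between groups cannot be told apart from that of genotype. Only *Prdx4* of the 35 genes lies on chromosome X. The part of these shifts in the values that follow was not tested.

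*Me1* and *Gstm1* rose in *Runx1* OE hearts, and none of the 34 tested genes was called lower by limma. *Me1* makes NADPH from malate in the cytosol, and *Gstm1* is a mu-class glutathione transferase that couples glutathione to electrophiles. Of all tested genes, 1.59% were called, 1.02% as higher and 0.573% as lower. Without adjustment, 5 of the 34 had a p under 0.05 and were higher, against 6.42% of all tested genes, and 2 were lower, against 6.58%. The log2 ratios of the 34 genes ran from -0.32 to 1.01 with a median of 0.08, and the median of all tested genes was 0.01. As deposited, 20 of the 34 lay above 0, against 51.8% of all tested genes. Under the other scalings tried, between 20 and 22 did so, against 50% to 60.9% of all tested genes. A fold of at least 1.5 was reached upward by the same 2 genes, against 5.44% of all tested genes, and downward by none, against 3.95%.

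**Figure D1:**
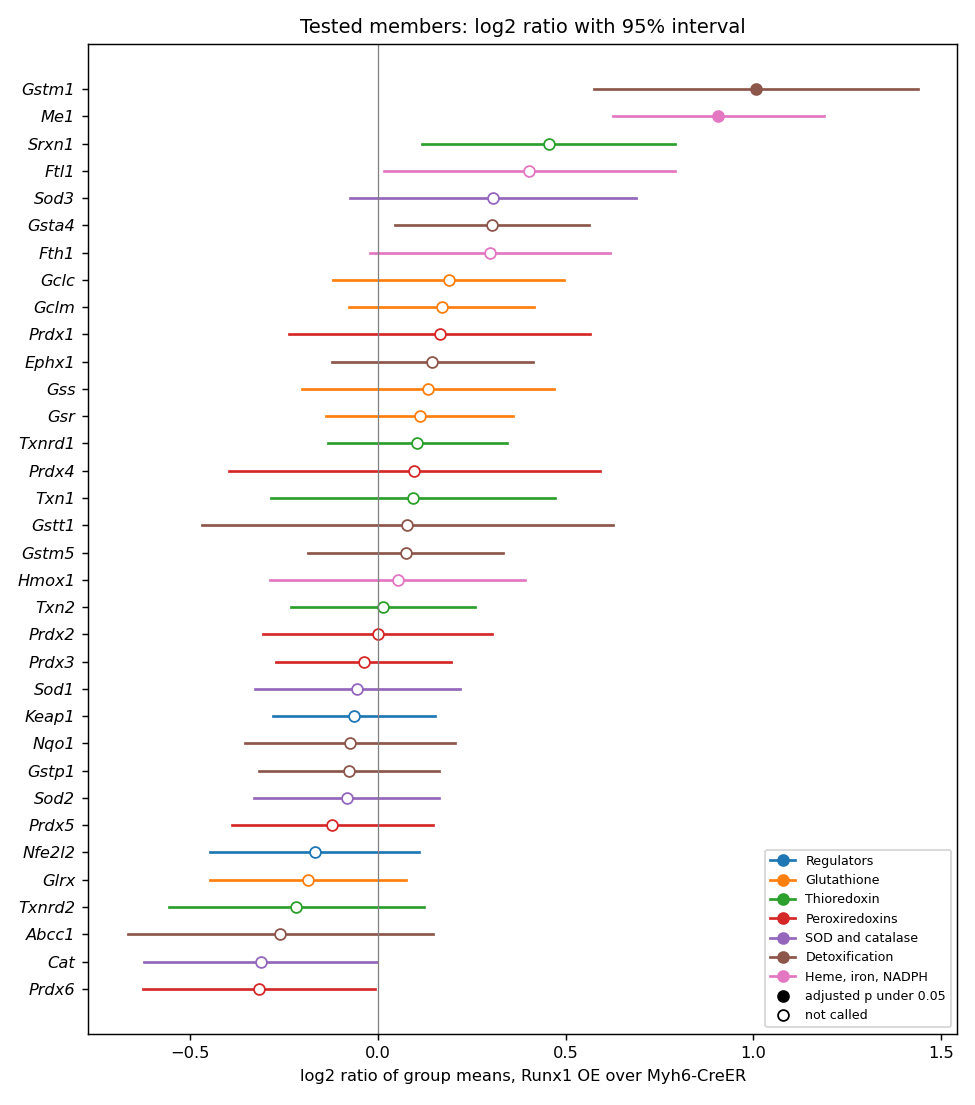
Log2 ratio of group means (*Runx1* OE over Myh6-CreER, x axis) for the 34 tested genes, one gene per line, with the 95% interval as a bar and the colour giving the role. Filled points are called at an adjusted p under 0.05: *Gstm1* at 1.01 and *Me1* at 0.91 stand to the right, and the other 32 genes lie between -0.32 and 0.46.

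*Me1* (ENSMUSG00000032418, GRCm39 chr9:86463424-86578006, minus strand) averaged 2154 normalized counts in the 4 *Runx1* OE libraries and 1149 in the 2 control libraries. The *Runx1* OE libraries lay between 1812 and 2432 normalized counts and the controls between 1026 and 1271. All *Runx1* OE libraries were thus above both controls. The 1.87-fold difference corresponded to a log2 ratio of 0.91 (SE 0.12, 95% interval 0.63 to 1.19, SD within groups 0.15, limma adjusted p = 0.013). Without the library that held the highest value, a *Runx1* OE library, the log2 ratio was 0.84. The call was lost when the variance was shrunk without a trend (adjusted p = 0.056), was not shrunk (0.21) or was placed wholly on the controls (1), with adjusted p between 0.0092 and 1 over 11 alternatives. On the opposite strand, exons of *Rwdd2a* and *A330041J22Rik* overlap those of *Me1*, at group means of 3.07 to 8.83 normalized counts, small beside the *Me1* means.

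*Gstm1* (ENSMUSG00000058135, GRCm39 chr3:107919571-107925289, minus strand) averaged 1598 normalized counts in *Runx1* OE and 795 in controls. Its *Runx1* OE libraries lay between 1137 and 1980 normalized counts, and its controls between 633 and 958. The groups did not overlap here either. The fold was 2.01 and the log2 ratio 1.01 (SE 0.19, 95% interval 0.58 to 1.44, SD within groups 0.28, limma adjusted p = 0.044). Without the highest library, of *Runx1* OE, the log2 ratio was 0.89. The call was lost with a filter at a mean of 1 (adjusted p = 0.063), without the trend (0.12), without shrinkage (0.31) and with the spread placed on the controls (0.62), over a range of 0.035 to 0.62 in 11 alternatives. *Gstm1* belongs to a cluster of similar genes, among which the authors' estimation of counts may have divided reads, and how far it did was not tested. Its exons also overlap those of *Gm66775* on the opposite strand, which was not analysed here.

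None of the other mu-class transferases of the chromosome 3 cluster was called. *Gstm5* averaged 391 normalized counts in *Runx1* OE and 371 in controls (log2 ratio 0.07, SE 0.11). *Gstm2* averaged 335 and 343 (-0.03, SE 0.18), and *Gstm4* averaged 182 and 148 (0.30, SE 0.15). These log2 ratios are below that of *Gstm1*, but the difference between *Gstm1* and its neighbours was not itself tested. *Gstm7* averaged 158 normalized counts in *Runx1* OE and 194 in controls (-0.29, SE 0.12, limma adjusted p = 0.36), and *Gstm6* was near the filter, with means of 9.60 and 13.8. A pseudogene of the family on chromosome 5, *Gstm2-ps1*, averaged 86.6 and 47.7 normalized counts (0.86, SE 0.27, adjusted p = 0.21). Whether reads were divided between *Gstm2-ps1* and *Gstm1*, *Gstm2* or other genes of the family was not tested.

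Malic enzymes, which convert malate to pyruvate, spread in both directions. *Me2*, the mitochondrial form that uses NAD, averaged 150 normalized counts in *Runx1* OE and 104 in controls (log2 ratio 0.53, SE 0.17, limma adjusted p = 0.22). *Me3*, the mitochondrial form that uses NADP, averaged 310 and 808 (log2 ratio -1.38, SE 0.39, adjusted p = 0.16). Its *Runx1* OE libraries lay between 123 and 570 normalized counts and its controls between 744 and 872, so the groups did not overlap. *Me1* was the only one of the 3 to pass the test. *Me2*, *Me3* and the relatives of *Gstm1* and of ferritin outside the 35 genes were chosen for description with their values known.

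**Figure D2:**
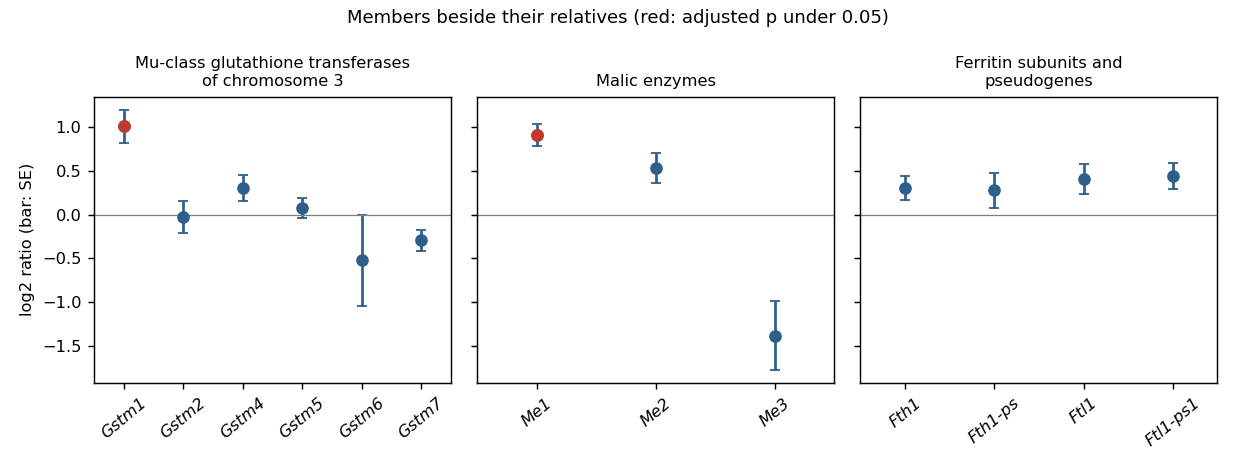
Log2 ratio (*Runx1* OE over Myh6-CreER, y axis) with its SE for the mu-class glutathione transferases of chromosome 3, the malic enzymes, and the ferritin subunits with their pseudogenes. *Gstm1* (1.01) and *Me1* (0.91), in red, are called, while *Me3* lies at -1.38 without a call and the 4 ferritin rows lie between 0.28 and 0.44.

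The regulators showed no called difference. *Nfe2l2* (GRCm39 chr2:75505857-75534985, minus strand), the gene of NRF2 itself, averaged 1147 normalized counts in *Runx1* OE and 1288 in controls. The *Runx1* OE libraries lay between 957 and 1345 normalized counts and the controls between 1232 and 1345, intervals that overlap. The log2 ratio was -0.17 (SE 0.12, 95% interval -0.45 to 0.11, limma adjusted p = 0.63). *Keap1* (GRCm39 chr9:21141026-21150657, minus strand), the cytoplasmic inhibitor of NRF2, averaged 707 and 738 normalized counts, with *Runx1* OE libraries between 653 and 750 and controls between 726 and 750. The 95% interval of its log2 ratio was -0.28 to 0.15, around a value of -0.06 (adjusted p = 0.83). NRF2 activity is set mainly by protein stability, which these RNA values do not measure.

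None of the 5 tested genes of glutathione synthesis and reduction was called, and 4 of them lay above 0, their median being 0.13 and none having an unadjusted limma p under 0.05. *Gclc* and *Gclm* encode the catalytic and modifier subunits of glutamate-cysteine ligase, the rate-limiting enzyme of glutathione synthesis. *Gclc* (GRCm39 chr9:77661817-77701767, plus strand) averaged 309 normalized counts in *Runx1* OE and 271 in controls, with libraries between 263 and 350 against 245 and 297 (log2 ratio 0.19, SE 0.13, 95% interval -0.12 to 0.50, adjusted p = 0.62). *Gclm* (GRCm39 chr3:122039206-122064381, plus strand) averaged 579 and 514, with libraries between 506 and 617 against 466 and 563 (0.17, SE 0.11, -0.08 to 0.42, adjusted p = 0.58). The library intervals overlapped for both subunits. Glutathione synthetase (*Gss*) averaged 162 and 148 normalized counts, and glutathione reductase (*Gsr*), which regenerates glutathione with NADPH, averaged 302 and 279. Glutaredoxin (*Glrx*), which removes glutathione from protein thiols, averaged 995 and 1132 and had the lowest log2 ratio of the group (-0.19, SE 0.11, adjusted p = 0.56). Leaving out the library with the maximum gave log2 ratios of 0.12 for *Gclc* and -0.12 for *Glrx*.

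*Slc7a11* (GRCm39 chr3:49846975-50398063, minus strand), the cystine importer that feeds glutathione synthesis, had the largest log2 ratio of the 35 genes, at few counts. It averaged 10.9 normalized counts in *Runx1* OE and 4.25 in controls. The *Runx1* OE libraries lay between 6.98 and 12.5 normalized counts and the controls between 2.98 and 5.52, so the groups did not overlap. The log2 ratio was 1.36, and 1.29 without the highest library. At a mean of 8.68 normalized counts it stayed out of the test. With the filter lowered to a mean of 1, its limma adjusted p was 0.23 (SE 0.41).

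In the thioredoxin system, *Srxn1* had the smallest p of the 5 genes. *Srxn1* encodes sulfiredoxin, which uses ATP to restore peroxiredoxins that have been overoxidized. *Srxn1* (GRCm39 chr2:151947436-151953296, plus strand) averaged 208 normalized counts in *Runx1* OE and 152 in controls. The *Runx1* OE libraries lay between 178 and 250 normalized counts and the controls between 140 and 163. The groups did not overlap, but the 1.37-fold difference was not called (log2 ratio 0.46, SE 0.15, 95% interval 0.12 to 0.79, limma adjusted p = 0.22). Groups did not overlap, with *Runx1* OE higher, for 4 of the 34 tested genes (*Gstm1*, *Me1*, *Srxn1* and *Gsta4*) and for 4.31% of all tested genes. They did not overlap, with *Runx1* OE lower, for 2 of the 34 (*Cat* and *Prdx6*) and for 7.67% of all tested genes, which makes 6 of 34 against 12% in either direction. The intervals are narrower for the controls of lower genes, since the highest library is then a control.

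**Figure D3:**
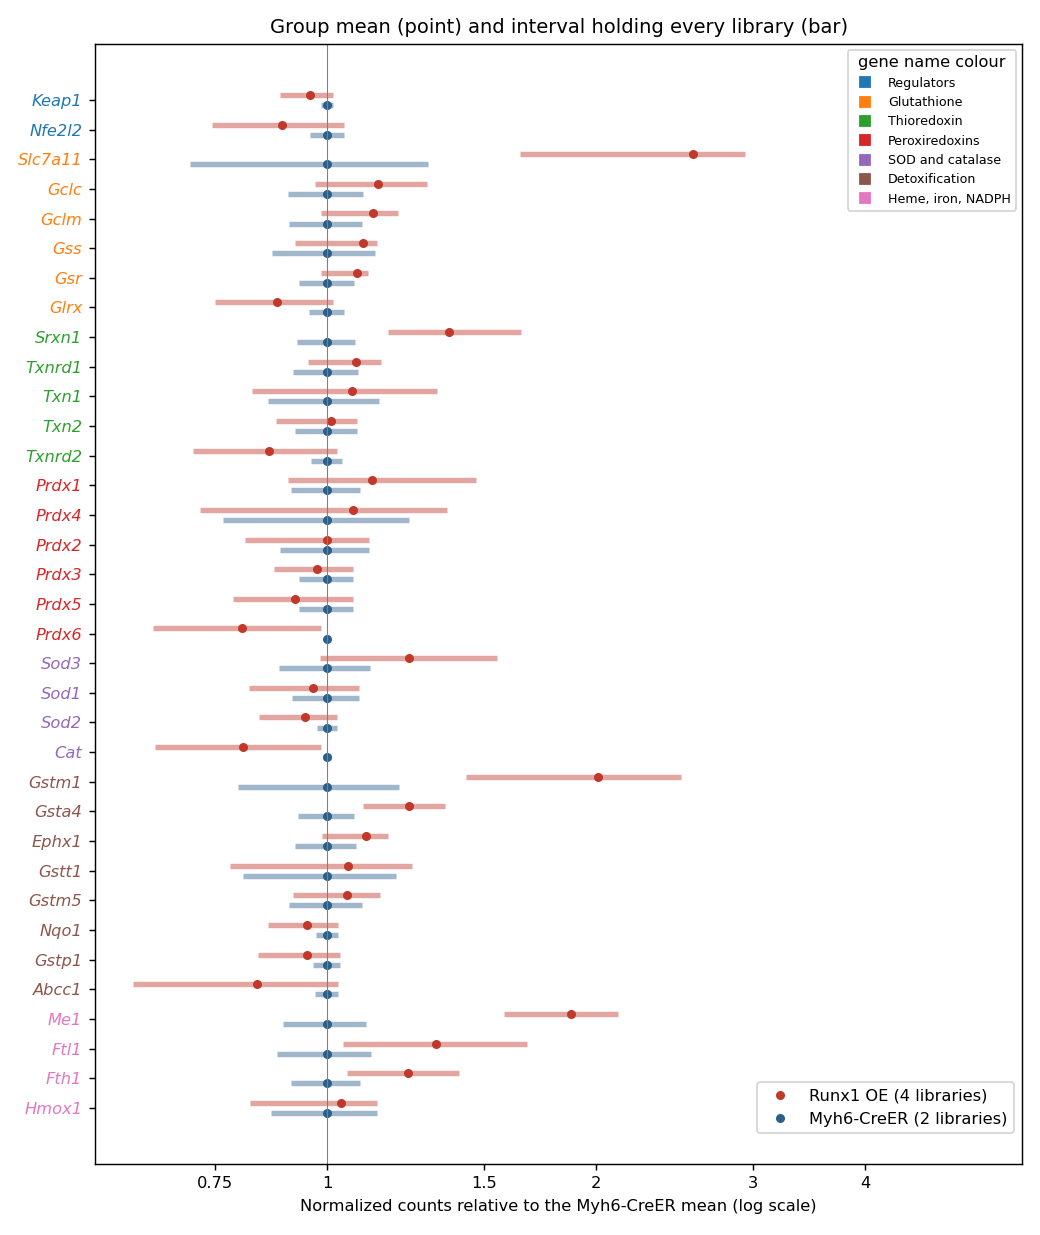
Normalized counts relative to the Myh6-CreER mean (x axis, log scale) for all 35 genes, grouped by role. Points are group means and bars the interval that must hold every library, for 4 *Runx1* OE libraries (red) and 2 Myh6-CreER libraries (blue). The bars are separate with *Runx1* OE on the right for *Slc7a11*, *Gstm1*, *Me1*, *Srxn1* and *Gsta4*, and with *Runx1* OE on the left for *Prdx6* and *Cat*.

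The rest of the thioredoxin system was not called. *Txnrd1* (GRCm39 chr10:82669785-82733546, plus strand), the cytosolic thioredoxin reductase, averaged 721 normalized counts in *Runx1* OE and 670 in controls, with libraries between 638 and 769 against 614 and 726 (log2 ratio 0.11, SE 0.10, 95% interval -0.13 to 0.34, adjusted p = 0.74). *Txnrd2*, the mitochondrial reductase, averaged 205 and 239 (-0.22, SE 0.15, adjusted p = 0.61). The corresponding thioredoxins reduce protein disulfides in the same compartments. *Txn1* averaged 764 and 715 normalized counts, and *Txn2* averaged 2976 and 2945.

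Peroxiredoxins reduce hydrogen peroxide through a reactive cysteine, and none of the 6 was called. *Prdx6* (GRCm39 chr1:161067682-161078789, minus strand), which takes its electrons from glutathione, averaged 1658 normalized counts in *Runx1* OE and 2064 in controls. The *Runx1* OE libraries lay between 1318 and 2032 normalized counts and the controls between 2061 and 2066. The highest *Runx1* OE value allowed was thus just under the controls, and the mean was 19.6% lower (log2 ratio -0.32, SE 0.13, 95% interval -0.62 to -0.01, adjusted p = 0.37). *Prdx1*, a cytosolic form, averaged 2974 and 2652 normalized counts (0.17, SE 0.17, adjusted p = 0.76), and without the highest library its log2 ratio was 0.01. *Prdx2*, abundant in red blood cells, was nearly equal at 4571 and 4572 normalized counts (95% interval of the log2 ratio -0.31 to 0.30). The mitochondrial *Prdx3* averaged 2272 and 2332, *Prdx5* averaged 1638 and 1782 (-0.12, SE 0.12, adjusted p = 0.73), and *Prdx4*, of the endoplasmic reticulum, averaged 357 and 334. The X-linked *Prdx4* had the widest 95% interval of the 6, -0.40 to 0.59 on the log2 scale.

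Catalase and the superoxide dismutases gave no call. *Cat* (GRCm39 chr2:103284194-103315505, minus strand), the peroxisomal enzyme that splits hydrogen peroxide, averaged 2433 normalized counts in *Runx1* OE and 3019 in controls. Its *Runx1* OE libraries lay between 1940 and 2975 normalized counts and its controls between 2986 and 3052. The mean was 19.4% lower (log2 ratio -0.31, SE 0.14, 95% interval -0.62 to -0.00, adjusted p = 0.38). The gap between the groups was narrow for *Cat* and *Prdx6*, and both genes could overlap once the means were scaled by the sum or by the upper quartile of the group means. *Sod3*, the extracellular superoxide dismutase, averaged 466 and 376 normalized counts, with libraries between 370 and 584 against 333 and 420 (0.31, SE 0.17, adjusted p = 0.50), and its log2 ratio was 0.18 without the highest library, of *Runx1* OE. The cytosolic *Sod1* averaged 1184 and 1229, and the mitochondrial *Sod2* averaged 6736 and 7133, with log2 ratios of -0.05 and -0.08.

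Besides *Gstm1*, the transferase with the smallest p among the detoxification genes was *Gsta4*, which conjugates the lipid peroxidation product 4-hydroxynonenal. *Gsta4* (GRCm39 chr9:78090056-78116631, plus strand) averaged 451 normalized counts in *Runx1* OE and 365 in controls. Its *Runx1* OE libraries lay between 401 and 494 normalized counts and its controls between 339 and 391, without overlap (log2 ratio 0.30, SE 0.11, 95% interval 0.05 to 0.56, limma adjusted p = 0.29). *Nqo1*, a quinone reductase often used as the readout of NRF2, was not called. *Nqo1* (GRCm39 chr8:108114857-108129838, minus strand) averaged 168 and 177 normalized counts, with libraries between 152 and 182 against 172 and 182 (-0.07, SE 0.12, -0.35 to 0.21, adjusted p = 0.85). The other 5 genes of this group were not called. *Ephx1*, which opens epoxides, averaged 313 and 283 normalized counts, and *Abcc1*, an exporter of glutathione conjugates, averaged 413 and 494. *Gstp1* averaged 1251 and 1318, and *Gstt1* averaged 43.2 and 40.9, with a wide 95% interval of -0.47 to 0.63 on the log2 scale.

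In the group of heme, iron and NADPH genes, all 4 lay above 0 on the log2 scale (median 0.35), and *Me1* was the one called. *Hmox1* encodes heme oxygenase, which breaks heme down and is induced by NRF2. *Hmox1* (GRCm39 chr8:75820249-75827217, plus strand) averaged 273 normalized counts in *Runx1* OE and 263 in controls, with libraries between 215 and 299 against 227 and 299 (log2 ratio 0.05, SE 0.15, 95% interval -0.29 to 0.39, adjusted p = 0.91). The ferritin subunits, which store iron, were higher in mean but not called. *Ftl1* (GRCm39 chr7:45107368-45109308, minus strand), the light chain, averaged 5268 and 3983 normalized counts, with libraries between 4147 and 6668 against 3503 and 4464 (0.40, SE 0.17, 0.02 to 0.79, adjusted p = 0.37). *Fth1* (GRCm39 chr19:9957962-9962462, plus strand), the heavy chain, averaged 19328 and 15709, with libraries between 16543 and 22063 against 14301 and 17117 (0.30, SE 0.14, -0.02 to 0.62, adjusted p = 0.42). Library intervals overlapped for both subunits.

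Both ferritin genes have processed copies that can take their reads. *Ftl1-ps1* on chromosome 13 averaged 1671 normalized counts in *Runx1* OE and 1233 in controls (log2 ratio 0.44, SE 0.15, limma adjusted p = 0.25). *Fth1-ps* on chromosome X averaged 47.8 and 39.4 (0.28, SE 0.20, adjusted p = 0.62). The copies thus had log2 ratios near those of their parent genes, and the split of reads between them is uncertain. On the opposite strand of *Ftl1*, *Gm10252* averaged 114 and 66.8 normalized counts. In all, 22 of the 35 genes share exon positions with a gene on the other strand, and whether counting used strand was not given in the sources used here.

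The precision behind the absent calls differed by gene. For 23 of the 34 tested genes, the 95% interval lay within a 1.5-fold change in either direction, against 52.3% of all tested genes. *Nfe2l2*, *Keap1*, *Nqo1*, *Hmox1*, *Gclc*, *Gclm* and *Txnrd1* were among them. The 11 others were *Gstm1*, *Me1*, *Srxn1*, *Ftl1*, *Fth1*, *Sod3*, *Prdx4*, *Prdx6*, *Gstt1*, *Abcc1* and *Cat*. Without the highest value of each gene, the log2 ratios of 19 of the 34 genes moved, or may have moved, by over 1.5 times or across 0, none of them called. *Txn1* (-0.03), *Prdx4* (-0.04) and *Gstt1* (-0.01) then lay below 0. Removing a maximum can only lower the mean of its group, and a ratio near 0 passes these limits with a small shift. The share over all tested genes is not given here, so the count is not particular to these genes. The SD within groups, on the log2 scale, had a median of 0.14 for the 34 genes and 0.19 for all tested genes.

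Promoters with and without the ARE core were described side by side. Without the core here means that none lay in the short promoter stretch searched around the RefSeq start. Sequence farther from the start was not searched, so these genes may have AREs elsewhere. *Prdx6*, *Gsta4*, *Gsr*, *Hmox1*, *Abcc1*, *Gclc* and *Sod3* had no matched promoter and are in neither group. The difference between the groups was not tested. The 8 genes with the core had log2 ratios from -0.17 to 0.91 with a median of 0.14, and *Me1* was called. The 19 tested genes with a matched promoter and no core in that stretch ran from -0.31 to 1.01 with a median of -0.00, and *Gstm1* was called. *Me1* and *Prdx1*, which share the core letters printed above, differed in outcome, with log2 ratios of 0.91 and 0.17.

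Further genes of the pathway were taken from 4 lists of names: 17 for other regulators, 34 for other NRF2 targets, 19 for other glutathione transferases and 21 for other thiol redox genes. Among the regulators, *Hrd1* is another name of *Syvn1*, which was tested, so that gene was listed under both names. Of these 91 names, 84 were in the table and 78 were tested. None was called by limma, while 4 were higher and 6 lower at an unadjusted p under 0.05, shares near the 6.42% and 6.58% of all tested genes. Their log2 ratios had a median of 0.03, with 44 above 0 and 34 below. By list, the medians were 0.03 for regulators, 0.03 for targets, -0.00 for transferases and 0.02 for thiol redox genes. A fold of at least 1.5 was reached by *Me3* and *Aox1*, an aldehyde oxidase at 66.3 normalized counts in *Runx1* OE and 41.4 in controls (0.68, SE 0.27, adjusted p = 0.34).

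Of the remaining genes at an unadjusted p under 0.05, named here after their values were seen, *Nfe2l1* is the relative of NRF2 that controls proteasome genes. It averaged 4151 normalized counts in *Runx1* OE and 5457 in controls, with libraries between 3394 and 4974 against 5289 and 5625 (log2 ratio -0.39, SE 0.13, limma adjusted p = 0.23). The groups did not overlap. The reductase *Txnrd3* averaged 220 and 327 normalized counts (-0.57, SE 0.19, adjusted p = 0.25), and the aldose reductase *Akr1b3* averaged 688 and 926 (-0.43, SE 0.16, adjusted p = 0.28). The heme transporter *Slc48a1* averaged 1468 and 1800 (-0.29, SE 0.09, adjusted p = 0.21). On the other side, *Fbxw11*, a ubiquitin ligase subunit, averaged 1170 and 979 normalized counts (0.26, SE 0.09, adjusted p = 0.27), and *Htatip2* averaged 68.4 and 50.6 (0.43, SE 0.18, adjusted p = 0.36).

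**Figure D4:**
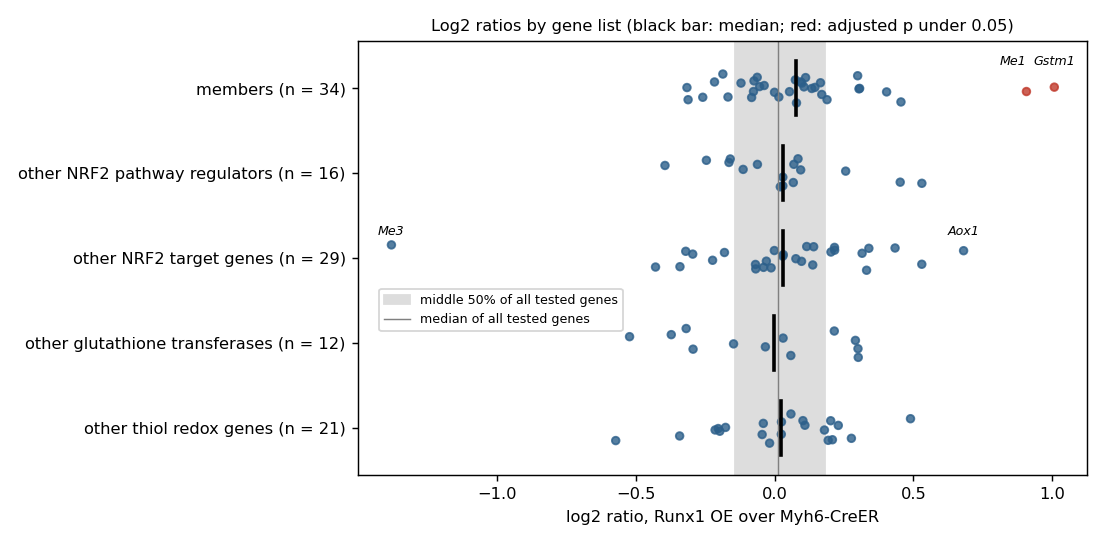
Log2 ratio (*Runx1* OE over Myh6-CreER, x axis) of each tested gene among the 35 and in the 4 further lists, with the list median as a black bar and the middle 50% of all tested genes shaded. Medians lie between -0.00 and 0.08, and the red points, *Me1* and *Gstm1*, are the 2 genes called.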

How the data were processed

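RNA from 4 *Runx1* OE and 2 Myh6-CreER samples, grouped by the genotype label, was sequenced by the authors. By the study's methods, the authors aligned reads with STAR to mm39, estimated counts of Ensembl transcripts with the Partek E/M method, normalized them by the median ratio and compared groups with DESeq2. HISAT2 and mm9 are given instead in the submitters' processing notes. The coordinates in the table overlap the named genes in GENCODE M39 (GRCm39) for all 35 genes. The deposited values used here are a normalized signal: estimated counts divided by a size factor, given as group means, total, maximum, arithmetic and geometric mean per gene. The number of raw reads per library is therefore unknown here. The 6 columns of single-library values were not used, because their names match no sample label. The authors' columns of p-values, adjusted p-values, ratios and fold changes with limits were not used, nor was the second table, which repeats them for genes past the authors' threshold.

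The labels place the RNA in ventricles, and one of them in left ventricles. Sex and litter of each sample are not given in the sources used here. The members and lists were chosen with earlier results of these data known.

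Genes averaging 10 or more normalized counts were kept (15181), and 9 with a geometric mean of 0 were not tested. Limma on values per sample could not be used without mapped columns. The sum of squares within groups on the natural log scale was taken as 2 × (2 ln control mean + 4 ln *Runx1* OE mean − 6 ln geometric mean), an approximation for small spread, with 4 residual degrees of freedom. It was shrunk with limma 3.58.1 (squeezeVar, trend on the log mean, R 4.3.3) to 8.30 total degrees of freedom. Tests were two-sided, with Benjamini-Hochberg adjustment over 15172 genes. The procedure was tested on simulated data in which 200 of 15172 genes were changed. At a log2 change of 0.5 it called 0 of the 200. At a log2 change of 1 it called 159 (79.5%), and 8.09% of its calls were unchanged genes. The simulated noise was normal on the log2 scale, equal in both groups and without count noise, as the test assumes. Its SD lay between that of the gene and the median of all tested genes. These rates hold for that setting and may differ for the 6 real libraries. The weighted group means matched the total to within 0.755% for every gene with a mean of at least 10. For the library intervals the means were rescaled to the total, with a tolerance of 0.2% on the log product. Motifs were counted with Python 3.11.15.

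Values and tests were given for called members, for the 2 members of each role with the smallest p, and for *Nfe2l2*, *Keap1*, *Nqo1*, *Hmox1*, *Gclc*, *Gclm*, *Txnrd1* and *Srxn1*. Other pathway genes were to be named when called. None was, and those named were chosen after their values were seen. Alternatives covered the filter, the pseudocount, scaling, centring, shrinkage, the placing of the spread and chromosomes X and Y.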

Additional observations from a re-analysis of the deposited data

How the results depend on the processing

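No paired analysis was possible because no label pairs the samples. Leaving out each replicate in turn was not run, because the columns of single-library values match no sample label. Leaving out the highest value of each gene, taken from the maximum and the group mean, put the median log2 ratio of the 34 genes between -0.01 and 0.07. The library that held this value can differ from gene to gene, so no single library was left out. The step can only lower the mean of the group that held the maximum, and it does not replace leaving out replicates.

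The 241 calls over all genes (154 higher, 87 lower) became 80 (66 and 14) with the variance shrunk without a trend, 15 (9 and 6) without shrinkage, and 56 (35 and 21) with the whole spread placed on the controls. A fold of at least 1.5 with no p counted 1426 genes, and 2 of the other pathway genes where the test called 0. With the filter at a mean of 1, 55 genes were called lower. The 2 calls among the 34 genes became 1 with that filter and 0 under each of the other variance treatments. *Gstm1* stayed at a log2 ratio of 1.01 and *Me1* at 0.91 in those fits, since the spread alone was changed. The scalings shifted these 2 log2 ratios by at most 0.05. None of the alternatives run could thus have changed their sign, and the kept sign says nothing about how firm the calls are. The median of the 34 genes ran from 0.07 to 0.13 over filters, pseudocount and scalings, which moved the median of all genes by at most 0.05. Groups that could not overlap numbered 6 among the 34 genes, 5 when scaled by the sum of group means (without *Cat* and *Prdx6*, with *Fth1*) and 4 when scaled by the upper quartile. The rescaling of group means to the total was chosen after seeing the data and gave 281 calls, with both genes kept. The spread of the controls alone was not estimated, since the pooled columns give one spread for both groups together.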
